A study of Mus musculus with 10 samples.

Results

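The genes for the protein components of the cytosolic ribosome were examined in mouse liver and liver tumours. Members were the gene entries whose symbol begins with Rpl or Rps and a digit, or with Rplp and a digit, or is Rpsa, without entries marked as pseudogenes by -ps, the Rps6k kinases and Rps19bp1. This rule used the symbol alone and found 88 members among 16697 gene entries. Of these, 77 were canonical ribosomal proteins, with 43 of the large subunit, 3 of the P stalk and 31 of the small subunit. The other 11 were paralogues or copies of such genes, and the annotation lists 5 of them as pseudogenes. Genes with at least 1 FPKM (fragments scaled to gene length and to library size) in at least 3 libraries were tested, which kept 87 members. Rpl3l, a paralogue of Rpl3 known from striated muscle, was the member left out.

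Bulk RNA was sequenced from 10 libraries of liver tissue. Normal liver (NL, n = 4) came from wild-type mice. c-MYC tumours (n = 3) were liver cancers (HCC) raised by hydrodynamic tail vein injection of c-MYC with the empty vector pT3, a method that puts plasmids into hepatocytes of the living mouse. c-MYC/FOXO1AAA tumours (n = 3) received c-MYC with pT3-FOXO1AAA, a form of the transcription factor FOXO1 that stays active because its AKT sites are mutated. All 10 carried the labels C57BL/6 and WT, whereas the extraction protocol calls the normal livers FVB and the study's list of plasmid mixtures gives FVB/N for mice injected with either mixture, so the strain is uncertain. That list names no MCL1 for the c-MYC/pT3 mixture, and neither do the labels, but a legend of the study names MCL1 for the control mice of this experiment, so its presence in the c-MYC tumours is uncertain as well. NL mice are not described as having been injected with a vector, so the comparisons with NL cannot tell the oncogenes apart from the injection. Ages were not given, and tumours were taken when mice became moribund. The labels do not tie a library to an animal, so p-values measure the spread between these libraries.

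Ribosomal proteins are made in the cytoplasm, carried into the nucleolus and fitted onto ribosomal RNA, and the family is needed in nearly equal amounts. Most of their mRNAs begin with a C followed by a run of pyrimidines, the terminal oligopyrimidine (TOP) motif, through which mTORC1 and LARP1 control their translation. c-MYC is known to raise the transcription of many of these genes, and ribosomal protein S6 is the classical substrate of the kinases below mTORC1. RNA-seq as used here measures mRNA and not translation.

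The bases around the transcription start are shown for members on which results turn, namely some of those that rose most, S6, and paralogues with their partners, to let the reader see which of them begin in a pyrimidine run. RefSeq gave a promoter of 300 bases, 250 before and 50 after the start on GRCm38.p6, for 64 members, and none was used for the other 24, among them Rpl29, Rpl7 and Rps4l. Each line below holds 30 bases, 15 on either side of the start, read along the transcribed strand, and capitals mark the longest unbroken run of C and T, or of equally long runs the one nearest the start. Rpl22 and Rps27l have 2 starts in RefSeq and the first listed is shown.
Rpl13a, chr7:45128731-45128760, minus strand: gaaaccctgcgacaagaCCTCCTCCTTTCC
Rps12, chr10:23787195-23787224, minus strand: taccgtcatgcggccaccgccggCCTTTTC
Rps10, chr17:27635230-27635259, minus strand: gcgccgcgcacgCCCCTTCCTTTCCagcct
Rplp0, chr5:115559452-115559481, plus strand: gTCTTCgggtttcgaggaccgcctggttct
Rps6, chr4:86857353-86857382, minus strand: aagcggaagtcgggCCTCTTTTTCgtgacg
Rps27, chr3:90213634-90213663, minus strand: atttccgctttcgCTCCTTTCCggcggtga
Rps27rt, chr9:114982725-114982754, minus strand: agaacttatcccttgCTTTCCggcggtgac
Rps27l, chr9:66946071-66946100, plus strand: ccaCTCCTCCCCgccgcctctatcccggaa
Rpl22, chr4:152325711-152325740, plus strand: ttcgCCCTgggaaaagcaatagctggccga
Rpl22l1, chr3:28805493-28805522, plus strand: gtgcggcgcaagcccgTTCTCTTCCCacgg
Rpl36a, chrX:134585639-134585668, plus strand: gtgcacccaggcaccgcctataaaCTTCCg
Rpl36al, chr12:69184053-69184082, minus strand: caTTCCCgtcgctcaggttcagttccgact
Rpl7l1, chr17:46782642-46782671, minus strand: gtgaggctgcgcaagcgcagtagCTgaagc
Rps4x, chrX:102189377-102189406, minus strand: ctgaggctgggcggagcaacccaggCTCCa

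A run of 8 or more pyrimidines in this window was present in 27 of 63 tested members with a promoter (42.9%), against 15.0% of the 10145 tested genes with a promoter. A C at the start with at least 4 pyrimidines after it, the strict TOP form, was present in 14 of 63 members (22.2%), Rps6, Rps10, Rps27 and Rps27rt of those shown among them, and in 3.06% of all. The pyrimidine words CTTTTC or CTTTCC, sought on the transcribed strand within 50 bases of the start, which overlap both of the above, were present in 28 members (44.4%) and in 8.82% of all. The ETS factor word CCGGAAG, on either strand of the whole window, was present in 25 members (39.7%) and in 19.6% of all. The word CACGTG, which reads the same on both strands and is bound by MYC, was present in 6 members (9.52%), Rpl13a, Rpl14, Rpl19, Rpl23, Rpl34 and Rps19, and in 11.8% of all. These matches are descriptions of letters, and RefSeq starts can lie some bases away from the start used in liver.

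Ribosomal protein mRNA was a small part of the library in NL and a large part in the tumours. The members held 3.51, 2.86, 3.50 and 3.21% of the summed FPKM in the 4 NL libraries. In c-MYC tumours they held 15.6, 12.7 and 14.7%, and in c-MYC/FOXO1AAA tumours 17.2, 17.8 and 19.5%. The 3 groups did not overlap, and the mean went from 3.27% ± 0.307 (SD, n = 4) through 14.4% ± 1.47 (SD, n = 3) to 18.2% ± 1.17 (SD, n = 3). The mean share was thus 4.39-fold higher in c-MYC tumours than in NL, and with FOXO1AAA it was 1.27-fold that of c-MYC alone. A share over the members was given no test. In bulk tissue, fewer cells of a type and less RNA per cell cannot be told apart.

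On the authors' scale the same difference was smaller. The deposited FPKM had been scaled between libraries by the authors, and the summed FPKM of all genes had a mean of 1083576 in NL (SD 29233, n = 4), 569867 in c-MYC (SD 18508, n = 3) and 506330 in c-MYC/FOXO1AAA tumours (SD 21111, n = 3). The sum over the members was 35483 ± 4017 in NL, 81980 ± 10918 in c-MYC and 92269 ± 9798 in c-MYC/FOXO1AAA, which is 2.31-fold between c-MYC and NL where the share gave 4.39-fold. The 10 highest genes of each library held 20.4 to 22.9% of the summed FPKM in NL, 10.4 to 11.2% in c-MYC and 8.98 to 10.2% in c-MYC/FOXO1AAA tumours. With the 10 highest genes of every group left out, members among them included, the remaining members held 3.75, 14.1 and 17.5% on average in NL, c-MYC and c-MYC/FOXO1AAA. All fold changes below are on the authors' scale.

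**Figure D1:**
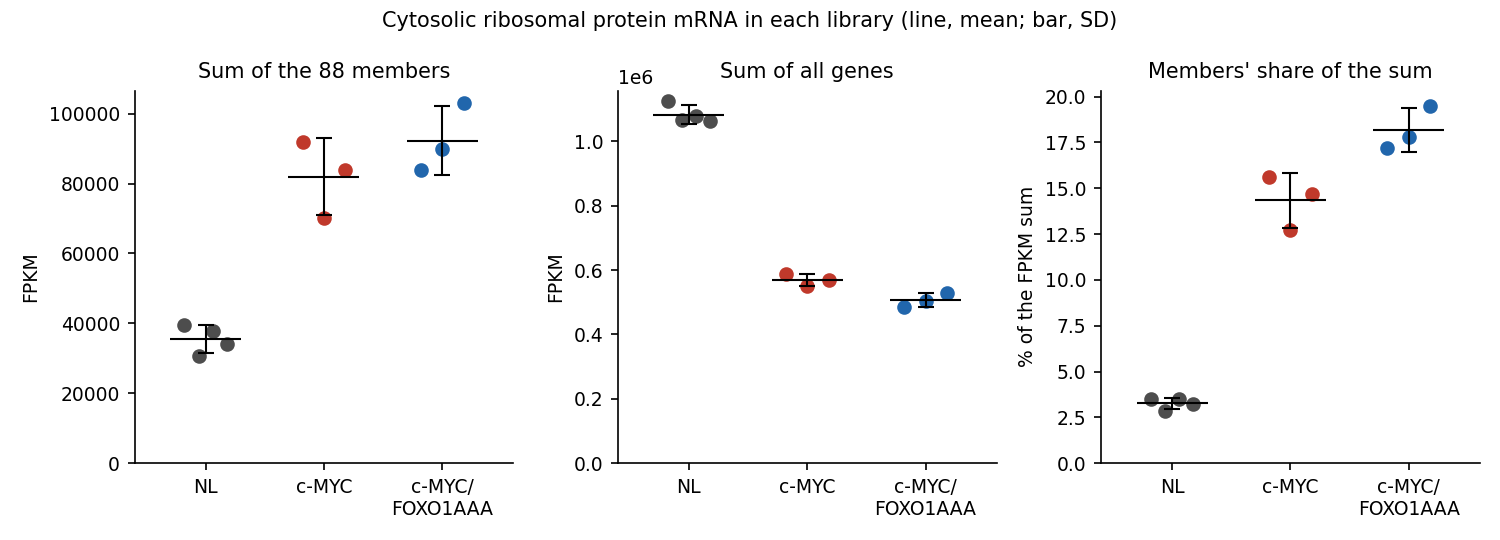
Summed FPKM of the 88 members (left), summed FPKM of all genes (middle) and the members' percentage of that sum (right), with a point per library, a line at the group mean and a bar of 1 SD for NL, c-MYC and c-MYC/FOXO1AAA. The members' share lay between 2.86 and 3.51% in NL and between 12.7 and 19.5% in the tumours, while the sum of all genes was lower in the tumours.

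Library depth was similar, with 13123719 to 20547746 reads recovered per library, and members had at least 1000 reads in every library for 61 of 88. The labels were checked against known genes. The mouse Foxo1 entry stood at 70.1 to 95.6 FPKM in the c-MYC/FOXO1AAA libraries and at 5.17 to 7.87 in the other 7, whereas mouse Myc stood at 4.17 to 22.2 FPKM in NL and 0.561 to 1.11 in the tumours. Whether these entries count reads of the injected sequences is not given in the sources used here. The 7 hepatocyte markers summed to 74438 to 82489 FPKM in NL, 3367 to 5289 in c-MYC and 828 to 1482 in c-MYC/FOXO1AAA tumours, and 6 and 7 of the 7 were lower than in NL. Macrophage markers (5) summed to 185 to 323, 95.4 to 135 and 44.4 to 76.0 FPKM, and stellate cell and fibroblast markers (6) to 79.0 to 101, 12.8 to 40.7 and 370 to 440 FPKM in the same order. Endothelial markers (5) summed to 17.2 to 20.4, 9.72 to 17.0 and 25.5 to 40.6, cholangiocyte markers (5) to 20.1 to 27.9, 17.6 to 32.4 and 30.2 to 38.1, erythroid markers (5 of 6 in the table) to 1117 to 2218, 131 to 234 and 215 to 532, and lymphocyte markers (4 of 5) to 1.88 to 3.87, 2.31 to 2.66 and 8.90 to 13.2 FPKM. Genes within several lists moved in opposite directions. In c-MYC tumours against NL, log2 fold changes ran from -5.74 to 2.34 for macrophage markers (median 0.27). The range was -5.57 to 1.86 for stellate cell and fibroblast and -3.73 to 3.71 for cholangiocyte markers. Endothelial markers ran from -3.89 to 2.45 in c-MYC/FOXO1AAA tumours against NL (median -1.53), with 3 of 4 tested below 0. The 2 lymphocyte markers tested stood at -0.92 and 5.42 between the tumour types. Sox9 and Hba-a2 had at most 3 reads in every c-MYC library. The part of cell make-up in the results on the members was not tested.

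In c-MYC tumours most ribosomal protein genes were higher than in NL and none passed the test as lower. By limma treat, a test for a change above 1.5-fold with Benjamini-Hochberg adjustment over 14017 genes, 61 of 87 members rose (70.1%), where 24.5% of all genes rose and 23.6% fell. The median log2 fold change of the members was 1.20, which is 2.30-fold, with quartiles of 0.89 and 1.46, and that of all genes tested was 0.08. The groups did not overlap for 77 members with c-MYC higher, a pattern shown by 39.0% of all genes, and for 1 with c-MYC lower, Rps4l, as in 34.9% of all genes. The log2 fold change was below 0 in 3 members. No member fell by this test, none had an unadjusted p below 0.05 in that direction, and limma voom on the recovered reads gave 0 as well. When every library was instead rescaled to the same FPKM total, 83 of 87 members rose, where 50.4% of all genes did, and the median was 2.13.

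**Figure D2:**
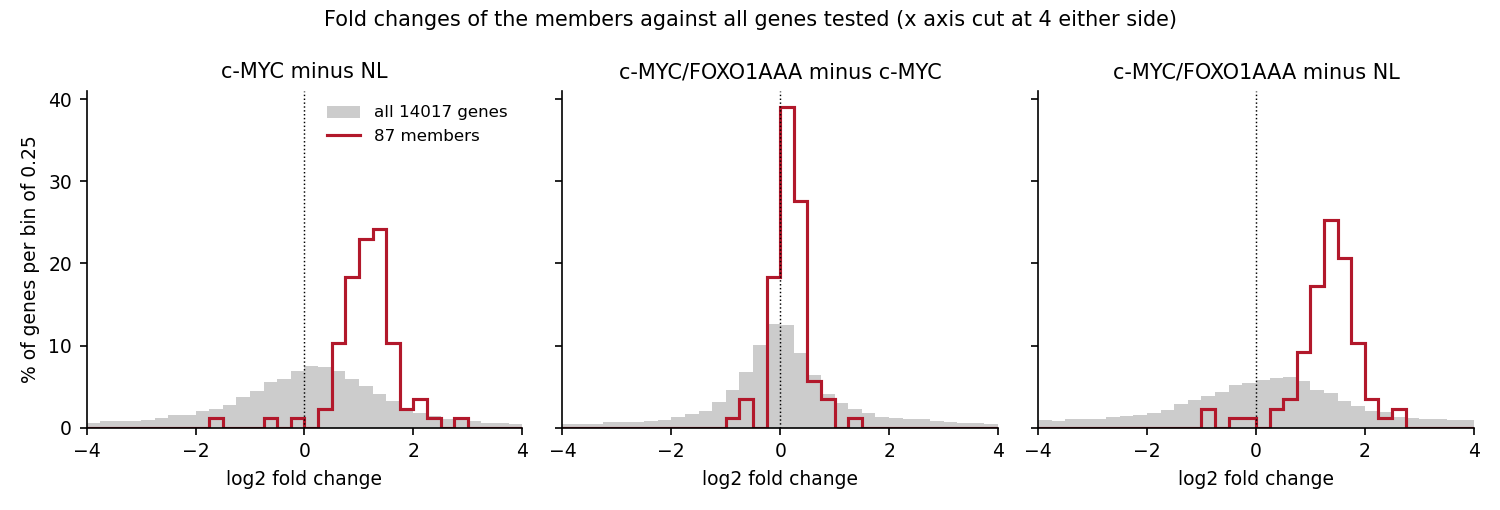
Percentage of genes per bin of 0.25 on the log2 fold change axis, for all 14017 genes tested (grey) and the 87 tested members (red line), in the 3 comparisons. The members form a narrow peak around medians of 1.20, 0.17 and 1.38 from left to right, beside medians of 0.08, 0.03 and 0.21 for all genes. Values beyond 4 on either side are not drawn.

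Among the proteins of the large subunit, which holds the peptidyl transferase centre, 30 of 43 rose (median 1.16), where 24.5% of all genes did. Rpl13a, known also as a part of a complex that silences inflammatory mRNAs, had 39.6, 26.2, 39.9 and 32.9 FPKM in NL and 292, 198 and 265 FPKM in c-MYC tumours. Every tumour library lay far above every normal one, a log2 fold change of 2.87 (SE 0.18, adjusted p = 7.11e-07), or 7.29-fold, the highest of the family. Rpl29 had 1.44, 0.914, 0.888 and 0.638 FPKM in NL and 5.15, 3.46 and 4.23 FPKM in c-MYC tumours, a log2 fold change of 2.18 (SE 0.28), but it rested on 3 to 129 reads over all libraries. Rpl5 and Rpl11 travel together with the small ribosomal RNA of the large subunit and, outside the ribosome, bind MDM2. Rpl5 had 220, 163, 211 and 196 FPKM in NL and 571, 474 and 580 FPKM in c-MYC tumours, and rose by a log2 fold change of 1.46 (SE 0.13, adjusted p = 7.82e-05). Rpl11 had 573, 478, 555 and 557 FPKM in NL and 1072, 847 and 964 FPKM in c-MYC tumours. Its groups did not overlap either, yet its log2 fold change of 0.83 (SE 0.13) did not pass (adjusted p = 0.0852).

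The lowest log2 fold changes among the large subunit proteins that rose were those of Rpl27 and Rpl27a, both at 0.92, Rpl19 at 0.95 and Rpl37 at 0.96. Rpl10, which joins late at the site where transfer RNAs enter, had 909, 746, 856 and 803 FPKM in NL and 1250, 1060 and 1249 FPKM in c-MYC tumours. The groups stood apart, but the log2 fold change of 0.52 (SE 0.10) lay below 1.5-fold (adjusted p = 0.989). Rpl35a, a gene mutated in some Diamond-Blackfan anaemia, was the canonical member with a value below 0. It had 75.6, 64.8, 73.4 and 62.3 FPKM in NL and 68.2, 32.2 and 52.3 FPKM in c-MYC tumours, which overlapped (log2 fold change -0.50, SE 0.21, adjusted p = 0.905).

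The P stalk proteins, which recruit elongation factors to the large subunit, rose 3 of 3, where 24.5% of all genes rose. Rplp0, the base of the stalk, had 598, 404, 590 and 466 FPKM in NL and 2224, 1885 and 2153 FPKM in c-MYC tumours. The libraries fell into clearly separate ranges, with a log2 fold change of 2.04 (SE 0.14, adjusted p = 4.37e-06). Rplp1 had 1586, 1246, 1612 and 1335 FPKM in NL and 4643, 3252 and 4216 FPKM in c-MYC tumours, a log2 fold change of 1.48 (SE 0.16, adjusted p = 0.000426). Rplp2, its partner in the stalk dimers, had 772, 533, 699 and 578 FPKM in NL and 1799, 1340 and 1586 FPKM in c-MYC tumours, a log2 fold change of 1.29 (SE 0.17, adjusted p = 0.00220).

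Among the proteins of the small subunit, which decodes the mRNA, 26 of 31 rose (median 1.29), where 24.5% of all genes did. Rps12 had 408, 240, 339 and 298 FPKM in NL and 1661, 1211 and 1511 FPKM in c-MYC tumours. No tumour library came near the normal range, and the log2 fold change was 2.20 (SE 0.18, adjusted p = 8.99e-06). Rps10 had 4.54, 3.48, 3.52 and 1.05 FPKM in NL and 14.9, 11.2 and 18.4 FPKM in c-MYC tumours, a log2 fold change of 2.40 (SE 0.43, adjusted p = 0.00250), on 5 to 273 reads over all libraries. Rps6, the mTORC1 pathway substrate, had 804, 651, 793 and 705 FPKM in NL and 1518, 1326 and 1482 FPKM in c-MYC tumours. It rose less than the median of the family, by a log2 fold change of 0.97 (SE 0.11, adjusted p = 0.00581), with no overlap of the groups. Rpsa, a laminin receptor as well as a ribosomal protein, had 537, 449, 585 and 490 FPKM in NL and 1464, 1074 and 1341 FPKM in c-MYC tumours, a log2 fold change of 1.32 (SE 0.14, adjusted p = 0.000477).

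Of the further members, which are paralogues or copies, 2 of 10 tested rose (20.0%, where 24.5% of all genes did), with a median of 0.63. The annotation lists 5 of these 10 as pseudogenes. The difference from the canonical members was not tested. Those that rose were Rpl22l1 at a log2 fold change of 0.97 (SE 0.14, adjusted p = 0.0216) and the processed copy Rpl6l at 1.19 (SE 0.13, adjusted p = 0.000914). The median over the 77 canonical members was 1.24, and 59 of them rose.

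**Figure D3:**
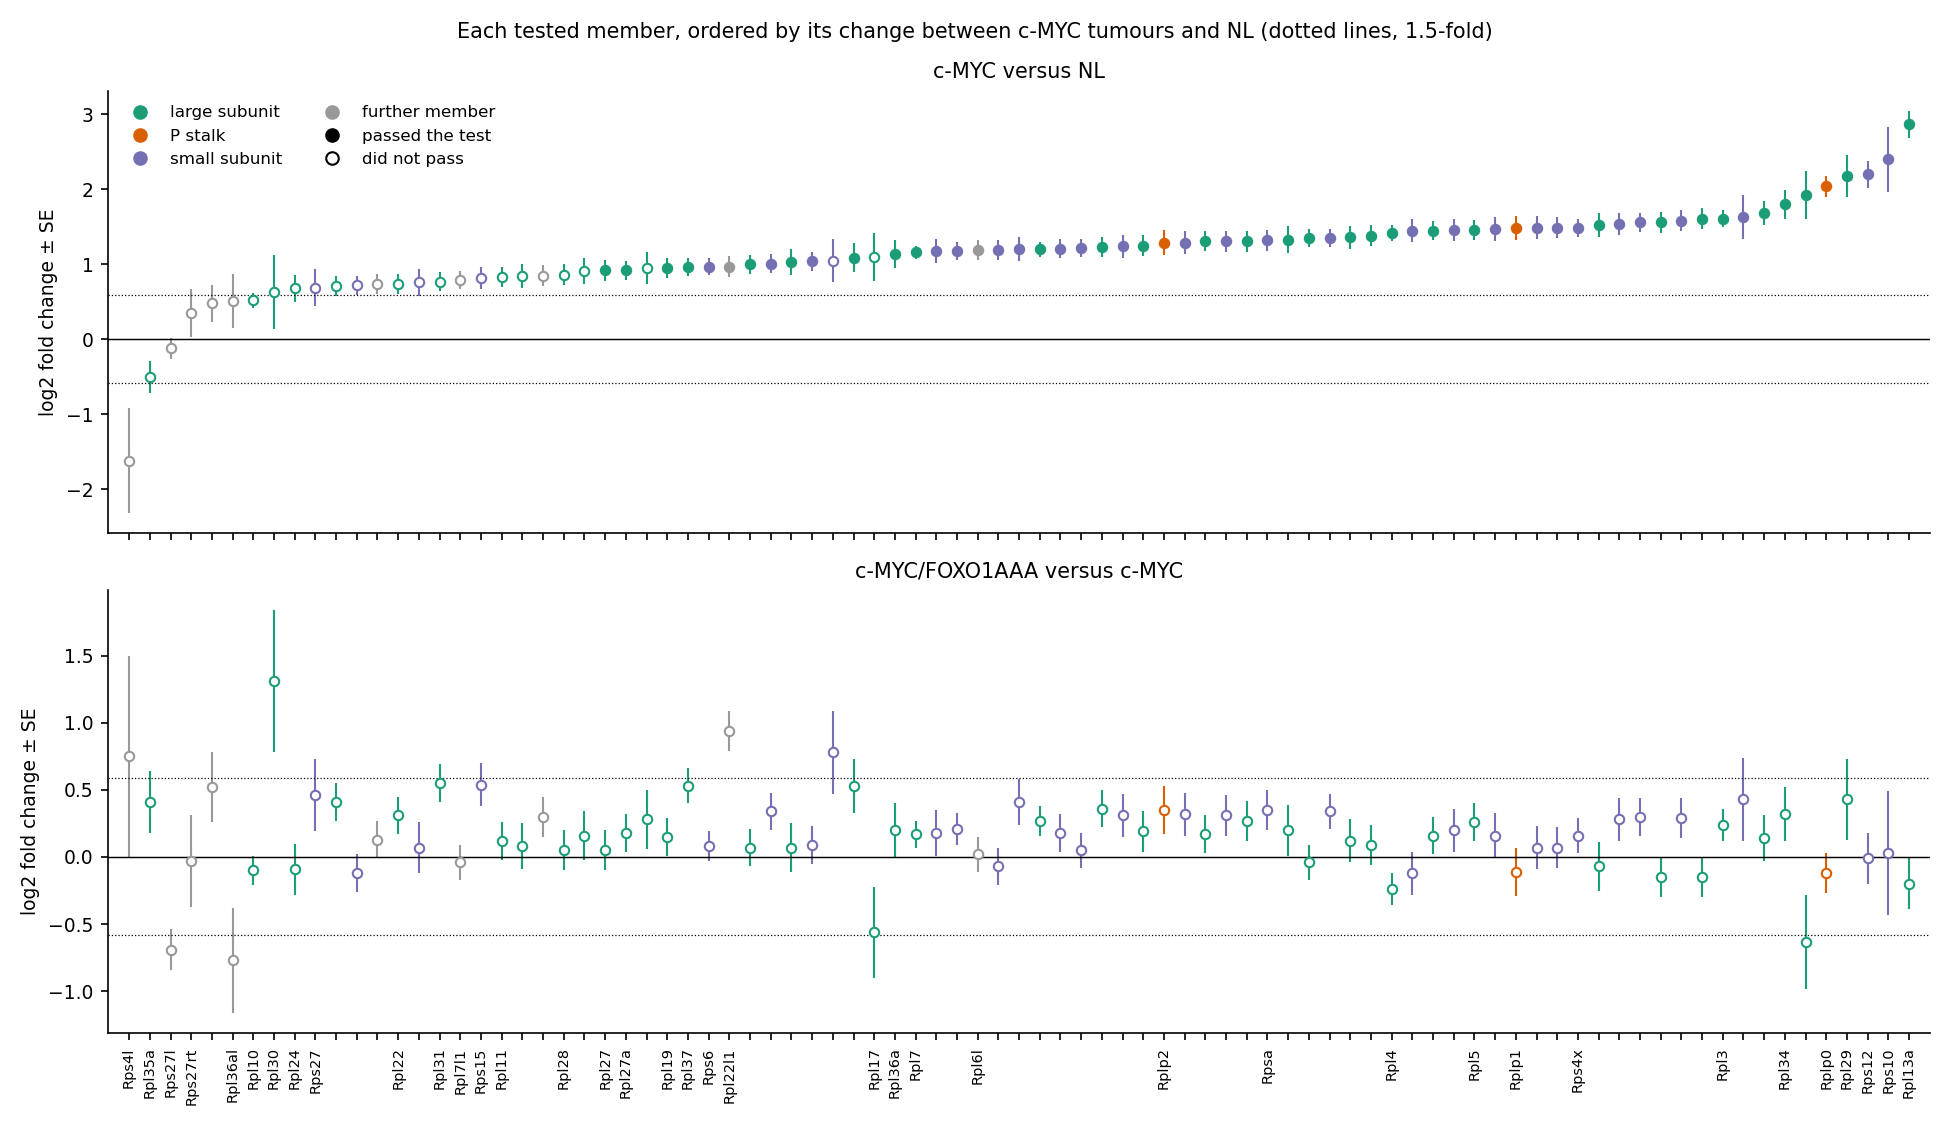
Log2 fold change with its SE for each tested member in c-MYC against NL (top) and c-MYC/FOXO1AAA against c-MYC (bottom), in the same order, coloured by subunit, filled where the test was passed, and with symbols under members described in the text. In the top panel values run from -1.62 for Rps4l to 2.87 for Rpl13a and 61 are filled, and in the bottom panel they run from -0.77 to 1.31 and none is filled.

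No ribosomal protein gene passed the test in either direction between the tumour types. By limma treat, 0 of 87 members rose and 0 fell between c-MYC/FOXO1AAA and c-MYC tumours, where 15.9% of all genes rose and 12.7% fell. At an unadjusted p below 0.05, 1 rose and 0 fell, and voom on the recovered reads called 1 higher, Rpl22l1 in both cases. The median log2 fold change was 0.17, which is 1.12-fold, beside 0.03 for all genes, and 67 of 87 members had a value above 0. The groups did not overlap for 25 members with c-MYC/FOXO1AAA higher, a pattern shown by 32.7% of all genes, and for 4 with c-MYC higher (Rpl4, Rpl17, Rps27l and Rpl36al), as in 30.7% of all genes. Tested for any change at all, without the 1.5-fold threshold, 7 rose, where 28.4% of all genes did, and 1 fell, where 26.4% did. These were Rpl22l1, Rpl31, Rps15, Rpl37, Rpl41, Rpl26 and Rps21, and Rps27l.

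Rpl22l1, a paralogue of Rpl22, came nearest to the threshold. It had 64.2, 66.1, 75.3 and 59.7 FPKM in NL, 141, 112 and 136 FPKM in c-MYC and 252, 206 and 292 FPKM in c-MYC/FOXO1AAA tumours. The 3 groups followed each other without overlap, and between the tumour types the log2 fold change was 0.94 (SE 0.15, adjusted p = 0.0613). Its adjusted p fell below 0.05 with libraries scaled to the same FPKM total (0.00596) or by quantiles (0.000836) and without the 1.5-fold threshold (0.000274). The same held with replicate number as a block (0.0363), by voom (0.0370) and without c-MYC/FOXO1AAA 2 (0.0181). In all other alternatives it stayed above 0.05. Among these were libraries at the same median (0.173) and fits without c-MYC 2 (0.202), c-MYC/FOXO1AAA 1 (0.129) or c-MYC/FOXO1AAA 3 (0.197).

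Rps27l, known as a gene induced by Trp53, was lower in each c-MYC/FOXO1AAA library than in any other. It had 412, 383, 402 and 404 FPKM in NL, 411, 289 and 415 FPKM in c-MYC and 227, 197 and 266 FPKM in c-MYC/FOXO1AAA tumours, a log2 fold change between the tumour types of -0.69 (SE 0.15, adjusted p = 0.606). Rpl30 had 20.0, 5.07 and 12.3 FPKM in c-MYC and 25.0, 23.5 and 32.6 FPKM in c-MYC/FOXO1AAA tumours, the highest log2 fold change of the comparison at 1.31 but with an SE of 0.53 (adjusted p = 0.272).

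Rps6, the P stalk proteins, Rpl5, Rpl11 and Rpsa did not pass between the tumour types. Rps6 had 1518, 1326 and 1482 FPKM in c-MYC and 1437, 1507 and 1616 FPKM in c-MYC/FOXO1AAA tumours, a log2 fold change of 0.08 (SE 0.11) that turned to -0.01 with libraries at the same median. Rplp0 had 1880, 1966 and 1915 FPKM with FOXO1AAA, a log2 fold change of -0.12 (SE 0.15) against c-MYC that turned to 0.05 with libraries at the same FPKM total. Rplp1 had 3223, 3463 and 4491 FPKM with FOXO1AAA, a log2 fold change of -0.11 (SE 0.18) that turned to 0.06 and 0.30 with libraries at the same FPKM total or quantile normalized, and Rplp2 stood at 0.35 (SE 0.18). Rpl5 stood at 0.26 (SE 0.14), Rpl11 at 0.12 (SE 0.14) and Rpsa at 0.35 (SE 0.15). This does not show that the tumour types had equal levels.

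Against NL, c-MYC/FOXO1AAA tumours again showed most of the family higher. By limma treat 73 of 87 members rose (83.9%) and 0 fell, where 31.2% of all genes rose and 26.6% fell, and the median log2 fold change was 1.38 beside 0.21. No member fell at an unadjusted p below 0.05 or by voom. The groups did not overlap for 81 members with c-MYC/FOXO1AAA higher, beside 44.1% of all genes, and for 1 with it lower, Rps27l, beside 36.0%. Of the large subunit 38 of 43 rose, of the P stalk 3 of 3, of the small subunit 29 of 31 and of the further members 3 of 10. With libraries at the same FPKM total 84 members rose, where 58.0% of all genes did. This comparison uses the NL libraries of the first comparison and the tumours of the second, so it is no independent evidence.

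The highest log2 fold changes were those of Rpl13a at 2.66 (SE 0.18), Rpl29 at 2.62 (SE 0.28), Rps10 at 2.43 (SE 0.43), Rps12 at 2.19 (SE 0.18) and Rpl34 at 2.12 (SE 0.19). Rpl13a had 228, 188 and 235 FPKM in c-MYC/FOXO1AAA tumours and Rps12 had 1316, 1567 and 1430 FPKM, both well above NL and overlapping with c-MYC tumours. The lowest values that passed were those of Rpl28 at 0.92, Rpl11 at 0.95 (adjusted p = 0.0159), Rpl27 at 0.96, and Rps6 (adjusted p = 0.00154) and Rpl22, both at 1.05. The 14 members that did not pass included Rpl10, Rpl17, Rpl24, Rpl35a, Rpl36 and Rps29, and 7 were further members, among them Rps27l at -0.81 (SE 0.14, adjusted p = 0.118), whose libraries all lay below NL.

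**Figure D4:**
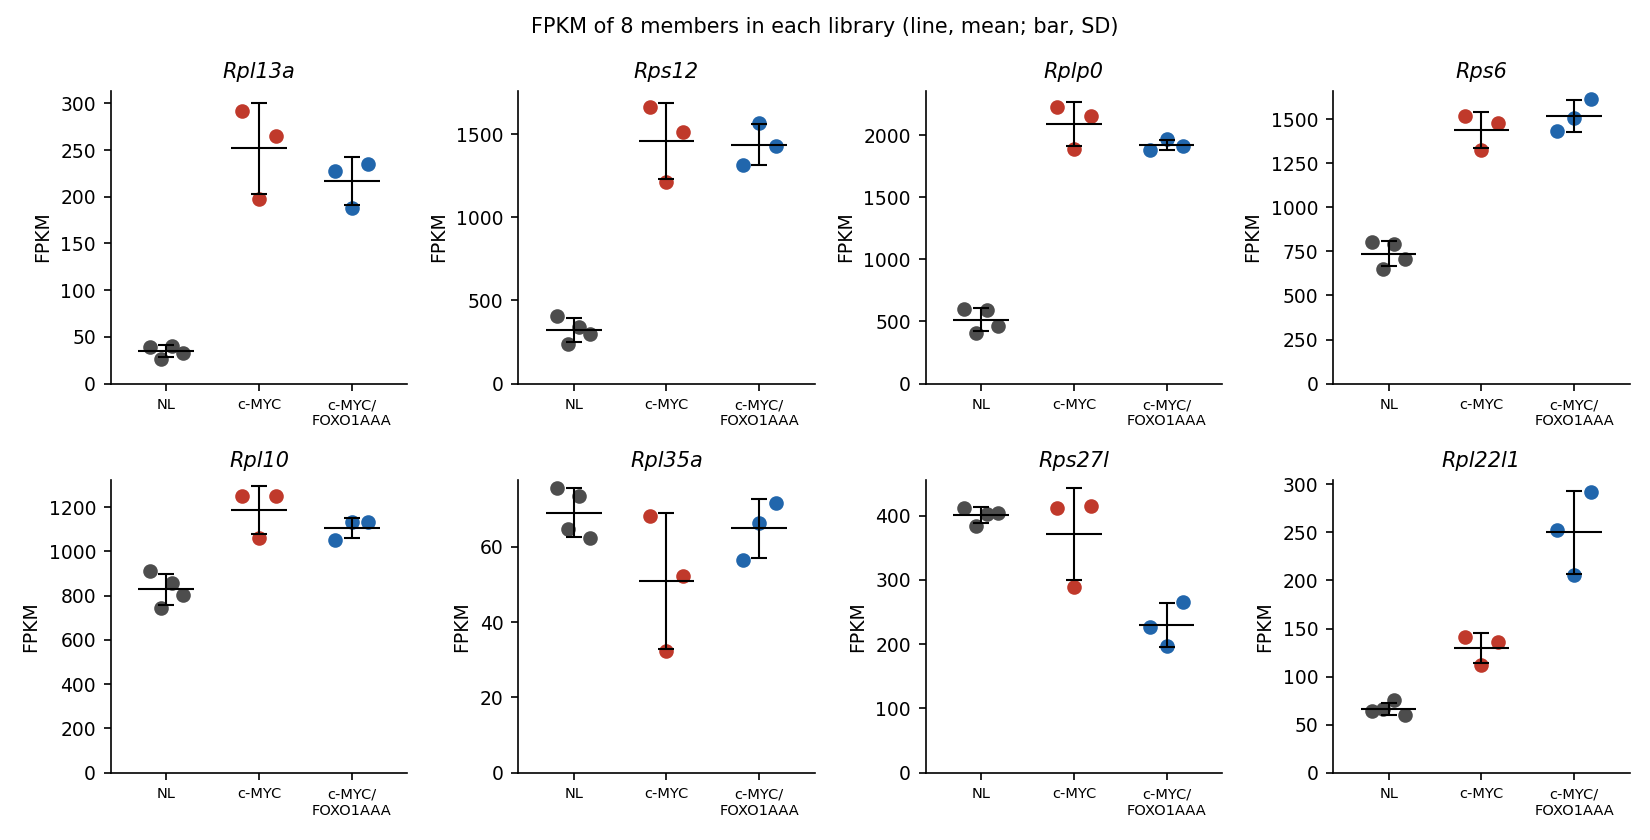
FPKM of 8 members in every library, with a line at the group mean and a bar of 1 SD, each axis starting at 0. Rpl13a, Rps12, Rplp0 and Rps6 stood higher in all tumours than in NL and overlapped between the tumour types, Rpl10 moved less, Rpl35a overlapped in all 3 groups, Rps27l was lower with FOXO1AAA and Rpl22l1 was higher from group to group.

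The members varied together from library to library. The members' residual SD on the log2 scale, within groups, had a median of 0.19 against 0.24 over all genes tested, and of 0.10 once the median of the canonical members was subtracted from each library. That family median was 8.78, 8.48, 8.77 and 8.52 (log2 FPKM) in NL, 10.02, 9.62 and 9.90 in c-MYC and 9.88, 9.97 and 10.12 in c-MYC/FOXO1AAA tumours. Libraries of a group differed in it as a whole. c-MYC 2 was the lowest c-MYC library for 80 of 87 members, where it was the lowest for 35.5% of all genes, and c-MYC 1 was the highest for 76. NL 2 was the lowest NL library for 75 members (37.9% of all genes) and NL 1 the highest for 63 (45.3%), and c-MYC/FOXO1AAA 3 was the highest of its group for 72 (34.5%). Without c-MYC 2 the median between the tumour types fell from 0.17 to 0.05, and without c-MYC 1 it was 0.25.

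The balance between the large and small subunits was similar in all 3 groups. The median log2 FPKM of the large subunit minus that of the small subunit was -0.17, -0.35, -0.41 and -0.22 in NL, -0.32, -0.26 and -0.18 in c-MYC and -0.38, -0.30 and -0.44 in c-MYC/FOXO1AAA tumours. The ranges of the 3 groups overlapped.

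Few members passed a test for departing from the rest of the family by more than 1.5-fold. The family median was subtracted from every library, a step that removes the scaling between libraries. Limma treat over all genes then called 3 members higher and 3 lower in c-MYC tumours against NL. Of all genes, 7.70% were called higher and 51.0% lower. As the centre was the median of 77 of these members, members tend to lie near it by construction. The step also shifted all genes, by -1.21 in this comparison, -0.15 between the tumour types and -1.35 in c-MYC/FOXO1AAA against NL. The shares of all genes given here and below are therefore no like background for the members. Rpl13a stood 1.66 (SE 0.13, adjusted p = 3.22e-06) above the family on the log2 scale, Rps12 0.99 (SE 0.11, adjusted p = 0.00360) and Rplp0 0.83 (SE 0.10, adjusted p = 0.0259). Below it stood Rps27l at -1.33 (SE 0.12, adjusted p = 3.79e-05), Rpl35a at -1.71 (SE 0.15, adjusted p = 7.69e-06) and Rps4l at -2.82 (SE 0.74, adjusted p = 0.0148), a transcribed copy of Rps4x. Rplp0 was no longer called without NL 2, c-MYC 2 or c-MYC 3, with replicate number as a block or with the mean of the family in place of its median, and Rps4l was not called without c-MYC 1.

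In c-MYC/FOXO1AAA tumours against NL, 3 members stood above the family and 5 below, where 11.9 and 52.2% of all genes did. Tested for any departure, without the 1.5-fold threshold, 23 members stood above and 27 below in c-MYC tumours against NL, where 12.6 and 66.3% of all genes did, and 27 and 26 in c-MYC/FOXO1AAA tumours, where 16.8 and 65.0% did. Rpl13a stood at 1.31, Rpl29 at 1.26 and Rps12 at 0.83 above it, and Rpl10 at -0.93, Rpl35a at -1.45, Rpl36al at -1.61, Rps27l at -2.16 and Rps4l at -2.22 below it. Between the tumour types 0 members departed in either direction by limma treat, where 13.6% of all genes were higher and 13.9% lower, and without the 1.5-fold threshold 6 were higher, where 21.9% of all genes were, and 9 lower, where 28.4% were. Rpl29 and Rps12 were no longer called without c-MYC/FOXO1AAA 1, without c-MYC/FOXO1AAA 2 or without NL 4, which left Rpl13a alone above the family. Rps12 was not called without NL 2, NL 3 or c-MYC 3, with replicate number as a block or with the mean of the family in place of its median either, and Rps4l lost its call without NL 1, NL 2, NL 3, NL 4, c-MYC 2 or c-MYC/FOXO1AAA 1.

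Ratios of a paralogue to its canonical partner within a library do not depend on scaling either. In 6 pairs both genes passed the filter, and 18 differences were tested by an exact 2-sided permutation test with Benjamini-Hochberg adjustment over them. With 4 against 3 libraries the smallest p is 0.0571 and with 3 against 3 it is 0.10, so none could pass 0.05. Rps27l stood at 91.2, 102, 72.8 and 149% of Rps27 in NL, 49.3, 59.5 and 62.3% in c-MYC and 28.1, 25.2 and 23.9% in c-MYC/FOXO1AAA tumours. The 3 groups did not overlap, with log2 differences of -0.82 (c-MYC against NL), -1.15 (c-MYC/FOXO1AAA against c-MYC) and -1.96 (c-MYC/FOXO1AAA against NL), each at the smallest p its test allows (adjusted p = 0.129, 0.150 and 0.129). Rps27 and Rps27l encode alternative forms of the same small subunit protein.

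Rpl22l1 stood at 14.3, 16.6, 16.5 and 12.5% of Rpl22 in NL, 18.4, 15.6 and 18.5% in c-MYC and 31.8, 23.9 and 25.6% in c-MYC/FOXO1AAA tumours. NL and c-MYC overlapped (log2 difference 0.23, exact permutation p = 0.171), and c-MYC/FOXO1AAA lay above both (0.63 and 0.85). Rpl22 itself had 449, 397, 456 and 479 FPKM in NL, 767, 718 and 738 in c-MYC and 792, 863 and 1140 in c-MYC/FOXO1AAA tumours. Rpl7l1 to Rpl7 was lower in both tumour types than in NL, by -0.36 and -0.58 on the log2 scale without overlap (adjusted p = 0.129 for each), and the tumour types overlapped (difference -0.21). Rpl7l1 works in ribosome assembly, and its own log2 fold change against NL was 0.79 in c-MYC tumours (SE 0.12, adjusted p = 0.112).

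Rps4l stood at 2.84, 4.35, 4.00 and 5.82% of Rps4x in NL, 0.230, 0.425 and 1.11% in c-MYC and 0.202, 1.29 and 1.43% in c-MYC/FOXO1AAA tumours, with both tumour types lower and without overlap with NL (adjusted p = 0.129 by exact permutation for each). Rps4l itself varied widely within the tumours, with 2.91, 5.13 and 13.2 FPKM in c-MYC and 2.57, 17.1 and 21.3 FPKM in c-MYC/FOXO1AAA, and did not pass against NL (log2 fold change -1.62, SE 0.70, adjusted p = 0.167). Rpl36al to Rpl36a differed by -0.62 (c-MYC against NL, overlapping), -0.97 and -1.59 (c-MYC/FOXO1AAA against c-MYC and against NL, not overlapping), on 6 to 44 reads of Rpl36al. Rps27rt, a retrocopy of Rps27, stood between 19.7 and 129% of Rps27 in NL, so wide a range that the difference of -0.34 between c-MYC and NL turned to 0.17 without NL 4. Between the tumour types, at 30.9, 42.8 and 33.1% and 25.5, 27.0 and 23.1%, the groups did not overlap (adjusted p = 0.150). Rpl3l was detected in NL at 0.410 to 0.626 FPKM and at 0.0861 to 0.234 FPKM in the tumours, on 0 to 7 reads, and these FPKM include the small prior count the authors added before taking logarithms.

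Of the canonical partners, Rpl3, Rpl7, Rpl36a and Rps4x rose in c-MYC tumours, whereas Rpl22 (0.74, adjusted p = 0.230) and Rps27 did not pass. Rpl3, a core protein near the peptidyl transferase centre, had 262, 195, 233 and 240 FPKM in NL, 728, 678 and 718 in c-MYC and 795, 839 and 881 in c-MYC/FOXO1AAA tumours, and rose in c-MYC tumours by a log2 fold change of 1.61 (SE 0.11, adjusted p = 7.37e-06). Rps4x had 502, 368, 481 and 396 FPKM in NL and 1265, 1207 and 1190 in c-MYC tumours (1.49, SE 0.12, adjusted p = 4.95e-05). Rpl7 stood at 603 to 723 FPKM in NL, 1448 to 1537 in c-MYC and 1609 to 1740 in c-MYC/FOXO1AAA tumours, and Rpl36a rose by 1.14 (SE 0.19, adjusted p = 0.0178) between c-MYC and NL. Rps27 had 452, 377, 552 and 271 FPKM in NL and 834, 486 and 666 in c-MYC tumours, which overlapped (0.69, SE 0.25, adjusted p = 0.532). It passed in c-MYC/FOXO1AAA tumours against NL, at 806, 781 and 1114 FPKM (1.15, SE 0.25, adjusted p = 0.0419).

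**Figure D5:**
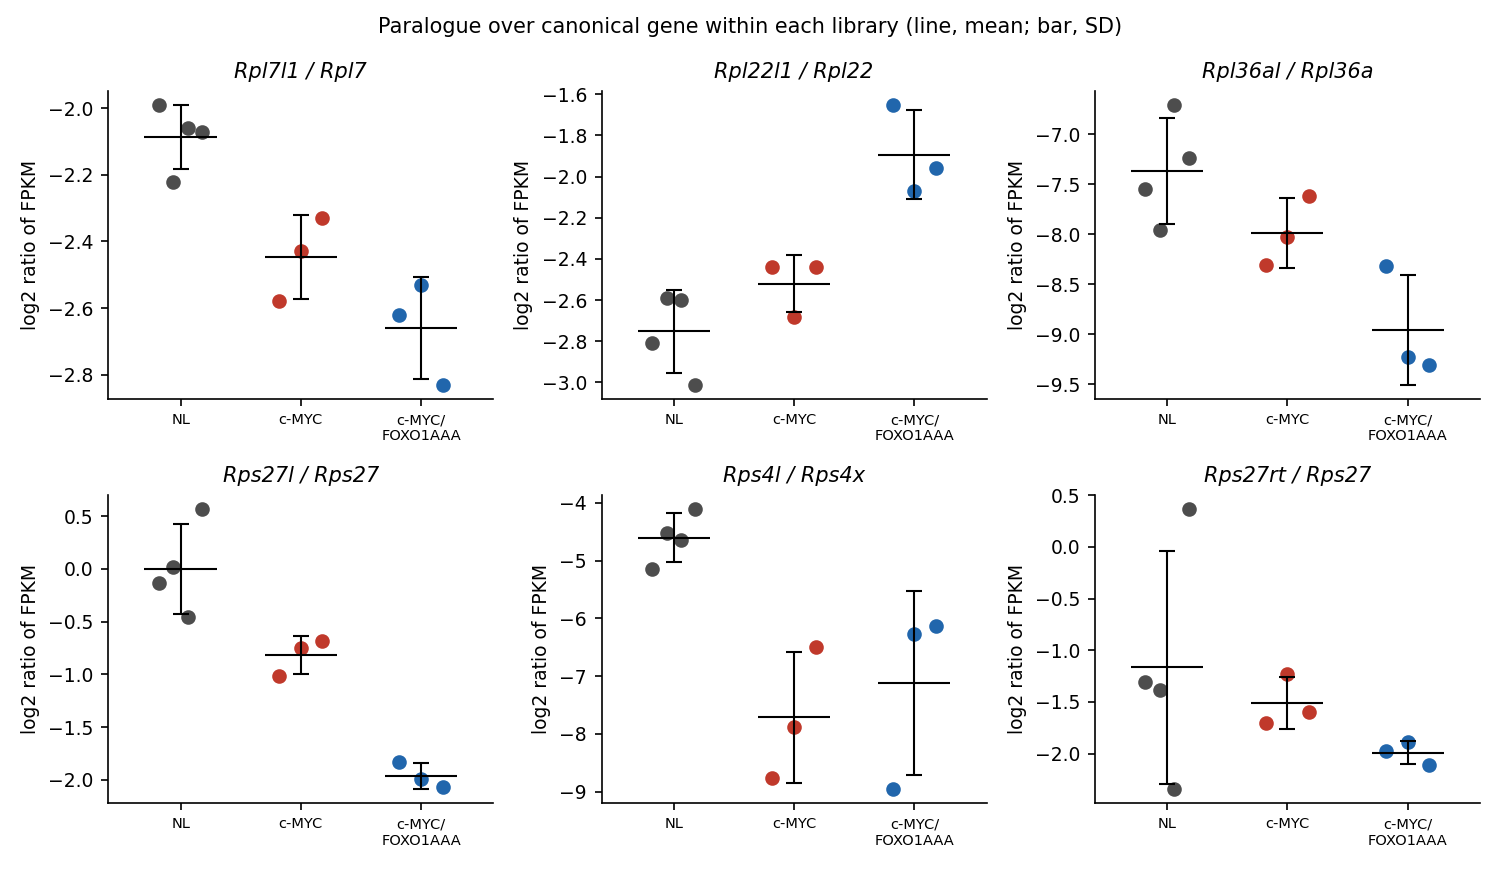
Log2 ratio of the FPKM of a paralogue to its canonical gene within each library for 6 pairs, with a line at the group mean and a bar of 1 SD. Rps27l to Rps27 was lower in c-MYC than in NL and lower again in c-MYC/FOXO1AAA, without overlap, Rpl22l1 to Rpl22 was highest with FOXO1AAA, and Rps27rt to Rps27 spread most widely in NL.

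Sequence similarity limits how well members can be told apart. Over runs of 100 bases, a length set here and not taken from the reads, the members' reference transcripts were compared with the annotated transcriptome. A median of 54.9% of the length was unique, 40 members were under 50% and 7 were wholly unique. The unique share can depend on the run length. Over 50, 100 and 150 bases it was 27.8, 65.2 and 95.5% for Rps4x, and 1.35, 1.63 and 2.04% for Rps27. The shares that follow are for 100 bases. Runs were shared with a gene elsewhere for 81 members, up to 40 such genes for a single member, and with an overlapping gene for 9. Of the reference transcript of Rps27 1.63% was unique, and of that of Rps27rt 10.5%, so reads can be split between them, whereas Rps27l was 100% unique. Of Rpl13a 55.2% was shared with an overlapping gene, of Rps10 61.8%, and of Rpl29 62.0% with 27 genes elsewhere. Rps12 was 16.6% unique, with 20 such genes, and Rplp0 81.7%. Of the members called below the family median, Rpl10 was 8.43% unique, with 10 such genes, and Rpl35a 65.8%, with 12. Rpl36al was 41.0% unique and Rps4l 98.0%. How the authors assigned reads that fit several genes is not given in the sources used here.

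Members above and below this middle gave like counts. Members under 50% unique rose in 27 of 40 and those above in 34 of 47 between c-MYC and NL, with medians of 1.20 in both. Among the 13 members at least 90% unique 9 rose, with a median of 1.31. Of all genes tested 24.5% rose in this comparison. Across the 77 canonical members, which share libraries, the unique share and the log2 fold change of c-MYC against NL had a Pearson r of -0.06 and a Spearman rho of -0.02.

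Levels per length varied widely between members. The length by which each value had been divided could be recovered from the values, and in 12 members it differed 2-fold or more from the length of the reference transcript. Levels between genes were therefore compared as FPKM at the reference length. On that scale Rplp1 was the highest member, with a mean of 1444 FPKM in NL, 4037 in c-MYC and 3726 in c-MYC/FOXO1AAA tumours, and Rps14, Rpl41 and Rpl13 were also high, with means of 1776, 1614 and 1559 FPKM over the 10 libraries. At the low end several canonical members stood far below their family, with means over the 10 libraries of 3.95 FPKM for Rpl29, 9.06 for Rps10, 20.8 for Rpl34, 21.4 for Rpl24 and 29.0 for Rps2. Rpl35a at 65.6 FPKM and Rpl13a at 81.4 FPKM were also low, and Rpl13a had a mean of 18.2 FPKM in NL on this scale. Rps2 shared runs with 36 genes elsewhere, and 66.8% of Rpl24 was shared with an overlapping gene.

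Ribosomal proteins that the symbol rule leaves out did not move alike. Rack1, the scaffold protein of the small subunit, had 410, 320, 405 and 359 FPKM in NL, 1187, 966 and 1160 in c-MYC and 1375, 1386 and 1364 in c-MYC/FOXO1AAA tumours, and rose against NL by log2 fold changes of 1.56 (SE 0.12, adjusted p = 1.60e-05) and 1.89 (SE 0.12, adjusted p = 1.15e-06). Fau, which encodes a fusion of a ubiquitin-like protein with small subunit protein S30, had 1188, 912, 1047 and 1063 FPKM in NL, 1698, 1129 and 1339 in c-MYC and 1184, 1509 and 1714 in c-MYC/FOXO1AAA tumours. Its groups overlapped (log2 fold changes 0.39 and 0.47 against NL), and it stood below the family median by -0.82 (adjusted p = 0.0361) and -0.88 (adjusted p = 0.0118). Over runs of 100 bases, 18.8% of the reference transcript of Fau was unique and 100% of that of Rack1. The length recovered for Fau was not that of an annotated transcript of the gene.

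Other genes whose mRNAs carry a TOP motif, mostly translation factors, rose in 8 of 18 in c-MYC tumours against NL and in 12 of 18 in c-MYC/FOXO1AAA tumours, with medians of 0.92 and 1.01 and none lower, where 24.5 and 31.2% of all genes rose. Npm1, a nucleolar chaperone, had 146, 83.0, 101 and 92.7 FPKM in NL and 787, 756 and 742 in c-MYC tumours, without overlap (log2 fold change 2.88, SE 0.17, adjusted p = 5.37e-07). Tpt1 had 1082, 1046, 1160 and 1073 FPKM in NL and 1229, 1000 and 1166 in c-MYC tumours, which overlapped (0.05, SE 0.12). Between the tumour types 2 of 18 rose (11.1%, where 15.9% of all genes did), the initiation factor subunit Eif3f from 87.6, 80.2 and 87.8 to 177, 195 and 202 FPKM (1.16, SE 0.12, adjusted p = 0.00201) and the filament gene Vim (2.35, SE 0.33, adjusted p = 0.000918).

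The chaperones and importers that carry new ribosomal proteins to the nucleolus rose in 8 of 14 in c-MYC tumours (median 1.11) and none fell, where 24.5% of all genes rose and 23.6% fell. Between c-MYC/FOXO1AAA and c-MYC tumours 0 of 14 passed the test in either direction, where 15.9% of all genes rose and 12.7% fell. Their median there was -0.23, with 10 of 14 below 0. The groups did not overlap for 4 lower and 1 higher, patterns shown by 30.7 and 32.7% of all genes. Grwd1, a chaperone of Rpl3, had 10.7, 4.76, 9.72 and 9.51 FPKM in NL and 42.9, 48.9 and 46.5 in c-MYC tumours (2.48, SE 0.24, adjusted p = 3.06e-05). In c-MYC/FOXO1AAA tumours 11 rose against NL, where 31.2% of all genes did, and 1 fell, Aamp (-0.99, SE 0.09, adjusted p = 0.00133).

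Of the genes that control TOP translation and S6 phosphorylation, 6 of 16 rose and 2 fell in c-MYC tumours against NL (median 0.53), where 24.5% of all genes rose and 23.6% fell. Larp1, which binds TOP mRNAs, had 28.6, 23.6, 25.5 and 24.1 FPKM in NL and 52.5, 73.9 and 55.8 in c-MYC tumours (1.24, SE 0.13, adjusted p = 0.000853), while Larp1b fell from 82.1, 77.5, 77.7 and 72.0 to 23.5, 25.6 and 21.1 FPKM (-1.73, SE 0.10, adjusted p = 1.38e-06) and Eif4ebp2, a brake on cap-dependent initiation, fell as well (-1.08, SE 0.12, adjusted p = 0.00271). Between the tumour types 0 rose and 1 fell, beside 15.9 and 12.7% of all genes, namely the S6 kinase family gene Rps6ka1, from 23.5, 28.4 and 25.7 to 10.8, 13.3 and 10.4 FPKM (-1.17, SE 0.17, adjusted p = 0.0122). Mtor itself stood at -0.26 (SE 0.15) against NL in c-MYC tumours. In c-MYC/FOXO1AAA tumours against NL 4 rose and 2 fell, beside 31.2 and 26.6% of all genes.

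In the list built around the Rpl5 and Rpl11 particle and the Trp53 response, 5 of 7 rose in c-MYC tumours, 5 of 7 in c-MYC/FOXO1AAA tumours and 1 of 7 between the tumour types, and none fell, where 24.5, 31.2 and 15.9% of all genes rose. The assembly factors Rpf2 and Rrs1, which bring the particle into the large subunit, rose in c-MYC tumours by log2 fold changes of 2.03 (SE 0.22, adjusted p = 0.000122) and 1.26 (SE 0.18, adjusted p = 0.00390). Cdkn1a, a Trp53 target, had 2.10, 0.727, 1.29 and 1.11 FPKM in NL, 26.6, 18.4 and 28.4 in c-MYC and 49.3, 42.7 and 50.4 in c-MYC/FOXO1AAA tumours, and Zmat3, another, rose between the tumour types from 1.93, 2.89 and 2.63 to 11.3, 11.6 and 9.49 FPKM (2.14, SE 0.22, adjusted p = 0.000113). Mdm2, to which Rpl5 and Rpl11 bind, stood at 0.20 (SE 0.14) in c-MYC tumours against NL and did not pass.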

How the data were processed

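The authors deposited a single table of log2 FPKM per gene for 10 libraries, made in edgeR from reads counted per Ensembl gene, with identifiers turned into symbols. The deposited log2 values include a prior count of 2 reads and library scaling factors of 0.649 to 0.684 in NL, 1.256 to 1.295 in c-MYC and 1.454 to 1.502 in c-MYC/FOXO1AAA, both recovered here from the values. GRCm38 and FastQC 0.11.7 are named in the submitters' processing notes, and the aligner and counting tool are not given in the sources used here. Libraries were made by polyA capture or ribosomal RNA removal, and the labels do not say which. The labels' MYC tumor libraries are called c-MYC here.

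Whole reads could be recovered for 99.86% of genes (tolerance 0.002 of a read) (13123719 to 20547746 reads per library). Of 17069 rows, 372 had no symbol and were left out. The study's test was made for counts. As the values were log2 FPKM, limma treat (limma 3.58.1, statmod 1.5.0, R 4.3.3) was used, 2-sided for changes above 1.5-fold, with trend and robust estimation, all 10 libraries in a single fit and Benjamini-Hochberg adjustment over the 14017 genes with at least 1 FPKM in at least 3 libraries, at a threshold of 0.05. A second fit subtracted the median of the 77 canonical members from each library. Paralogue ratios were tested by exact permutation (scipy 1.17.1, Python 3.11.15). The scripts were tested on simulated data. Sequence sharing and start windows came from GRCm38 transcripts and RefSeq.

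Members named were the 5 highest and 5 lowest called in each fit and comparison, any member called against the median, the member that failed the filter, paralogues and their partners, Rplp0, Rplp1, Rplp2, Rps6, Rpl5, Rpl11, Rpsa and the ribosomal proteins outside the symbol rule. Other members named (Rpl4, Rpl17, Rpl24, Rpl30, Rpl6l and those listed as holding a motif, passing without a threshold, failing a test or ranked by level), and the genes named from other lists, were chosen after their values were seen. Some genes are not reported here. The members and lists were chosen with earlier results of these data known. Alternatives were other pseudocounts, filters, scalings, thresholds and fits, fits that leave out a library or take replicate number as a block and, chosen after seeing the data, limma voom on the recovered reads.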

Additional observations from a re-analysis of the deposited data

Results flagged for a closer look

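The NL 2 library stood apart for Rpl36a. Its log2 FPKM was 7.20, where the other NL libraries lay between 7.59 and 7.67, a gap of 0.833 of the group's range, just past the critical value for 4 samples. This was 1 of 45 sets of 4 NL values checked, and chance alone flags about 1 in 20 such sets. NL 2 was the lowest NL library for 75 of 87 members.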

How the results depend on the processing

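In each alternative tried, most members were higher in both tumour types than in NL, apart from a 2-fold threshold, which left 28 of 87 in c-MYC and 48 in c-MYC/FOXO1AAA tumours. The share of all genes called at the 2-fold threshold is not given here, so these 2 counts have no background beside them. Scaling moved the members' median most, to 2.13 and 2.05 in c-MYC against NL, 0.34 between the tumour types (same FPKM total) and 2.48 and 2.35 in c-MYC/FOXO1AAA against NL, for libraries set to the same FPKM total and quantile normalized in that order. Setting the same FPKM total shifted all genes by 0.93, 0.17 and 1.10 in these comparisons. No filter gave 1 lower member against NL for each tumour type, Rpl3l, and in c-MYC/FOXO1AAA the same median and no threshold gave 1, Rps27l. Between the tumour types 1 was higher with the same FPKM total, by quantiles and by voom, and 7 without a threshold, while 1 was lower by quantiles, Rpl36al, and 1 without a threshold, Rps27l. Without a threshold 23 members stood above and 27 below the family median in c-MYC against NL (12.6 and 66.3% of all genes), 6 and 9 between the tumour types (21.9 and 28.4%), and 27 and 26 in c-MYC/FOXO1AAA against NL (16.8 and 65.0%). The members' share of reads was 1.70, 7.68 and 9.79% in NL, c-MYC and c-MYC/FOXO1AAA. Without the highest genes, members among them included, the remaining members held 3.75% of FPKM in NL.

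Leaving out each library gave 53 (without c-MYC 1) to 69 (without c-MYC 2) members higher and 0 to 1 lower (Rps4l, without c-MYC/FOXO1AAA 1) in c-MYC against NL, with medians of 1.13 to 1.30. It gave 0 to 1 higher between the tumour types, with medians of 0.05 to 0.25, and 67 to 75 higher and 0 to 1 lower (Rps27l, without c-MYC/FOXO1AAA 3) in c-MYC/FOXO1AAA against NL, with medians of 1.30 to 1.46. Above the family median stood 1 to 3 and below it 4 to 6 in c-MYC/FOXO1AAA against NL. In all 10 of these fits 53 of the 61 and 66 of the 73 members stayed called. The shares of all genes called with a library left out are not given here. With all libraries, 24.5% of all genes rose in c-MYC and 31.2% in c-MYC/FOXO1AAA tumours against NL. The Rps27rt to Rps27 difference between c-MYC and NL ran from -0.73 to 0.17.

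Of 2042 values for 89 named results, 1895 kept direction and call, 66 lost a call, 53 gained it and 28 changed sign. In c-MYC against NL, Rps27l turned to 0.80 with the same FPKM total, 0.65 by quantiles and 0.05 without c-MYC 2 (-0.21 to 0.05 over libraries left out), and Rpl35a to 0.43 with the same FPKM total. Between the tumour types, with the same FPKM total and by quantiles, Rpl7l1 turned to 0.13 and 0.24, Rps27rt to 0.14 and 0.30 and Rplp1 to 0.06 and 0.30, and with the same FPKM total Rpl10 turned to 0.07 and Rplp0 to 0.05. Rps6 turned to -0.01 with the same median. Leaving out a library gave a range of -0.10 to 0.02 for Rpl7l1, -0.13 to 0.06 for Rps27rt, -0.04 to 0.41 for Rpl36a and -0.05 to 0.24 for Fau. In c-MYC/FOXO1AAA against NL, with the same FPKM total and by quantiles, Rpl35a turned to 1.0 and 0.44 and Rps27l to 0.29 in both, and with the same FPKM total Rpl36al turned to 0.84 and Rps4l to 0.23, which ran from -1.43 to 0.10 (without c-MYC/FOXO1AAA 1) with libraries left out. The cause of these changes was not tested, beyond the shifts given above.

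Over all genes tested, libraries with the same replicate number did not deviate together (correlations of -0.040 to 0.027). For the members, NL 2 and c-MYC 2 were each the lowest of their group for most (75 and 80 of 87). NL 1 and c-MYC 1 were each the highest for most (63 and 76). c-MYC/FOXO1AAA went otherwise, with replicate 1 lowest for 55 and replicate 3 highest for 72. Whether libraries of the same number were handled together was not tested. With the replicate block 58, 1 and 73 members were higher in c-MYC against NL, between the tumour types and in c-MYC/FOXO1AAA against NL. The shares of all genes in the block fit are not given here. Depth limits Rpl29, Rps10, Rpl36al and Rpl3l.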
